A study of Mus musculus with 16 samples.

Results

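Foxj1, Rfx1, Rfx2, Rfx3, Tekt1, Tekt2, Dnah5 and Dnah9 are regulators and structural genes of cilia, and they were followed to ask whether they joined the response of cochlear supporting cells to a block of Notch signalling. They were chosen by name, with earlier results of these data known. All 8 were found among the 36536 gene identifiers of the count tables (Dnah5 and Dnah9 under the older symbols Dnahc5 and Dnahc9). The 16 libraries came from cochleas of Lfng-EGFP mice, which carry a bacterial artificial chromosome that drives GFP from Lfng regulatory sequence on a mixed B6 and FVB background. Cochleas of postnatal day 0 (P0) or day 5 (P5) were kept in medium with EGF and FGF2 and exposed for 24 hours either to DAPT at 10 µM, which inhibits gamma-secretase and so the cleavage of Notch receptors, or to its vehicle DMSO at 0.04%. After culture the cells were sorted into GFP+ cells (mostly supporting cells) and GFP- cells (cells sorted as lacking GFP), which gave 8 groups of 2 libraries: P0 DMSO, P0 DAPT, P5 DMSO and P5 DAPT, each GFP+ and GFP-. By the methods of the study, cells with weak GFP were left out of the sort. The labels do not say whether 2 libraries of a group came from separate animals, so p-values measure the spread between these libraries, which may be technical.

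A newborn hair cell of the mouse cochlea carries a single true cilium, the kinocilium, beside its stereocilia, and resorbs it as it matures, while supporting cells carry a primary cilium. FOXJ1 and the RFX proteins are transcription factors of ciliated cells: FOXJ1 drives genes of motile cilia, and RFX factors act on genes of both kinds of cilia and are needed by hair cells. Tektins form filaments inside the doublet microtubules of the axoneme, and DNAH5 and DNAH9 are heavy chains of the outer dynein arms that move motile cilia.

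RFX factors bind paired half-sites known as X-boxes, and FOXJ1 is a forkhead protein, so the sequences before the start sites were searched for such letters. RefSeq windows of 300 bases (250 before to 50 after a start site, build GRCm38.p6) covered 7 of the 8 genes in 10 windows. Foxj1 was not among them. The letters GTTGCC, a half-site on either strand, stood in 6 of the 10 windows, against 12.5% of all 32851 windows. They stood in 5 of the 7 genes (Rfx1, Rfx2, Rfx3, Tekt1 and Tekt2). Tekt2 windows with the letters overlap and hold the same sites, so this gene enters the 6 more than once. The 12.5% is a share of windows and not of genes. A paired form, GTNNCC followed by GNAAC with 2 bases between (either strand), stood in Tekt2 and Dnah9, against 1.56% of all windows, and a Tekt2 match overlaps a GTTGCC match. The same pair with 3 bases between was in none of the 7 genes and in 2.17% of all windows, and the forkhead letters GTAAACA were in none of the 7 and in 3.65%. A match is a description of letters and not a binding site. The 250 bases before the most upstream listed start of each tektin and dynein gene are shown, 5′ to 3′ on the strand of the gene, because these 4 genes had opposite directions with DAPT at P0. Capitals mark GTTGCC or the paired letters.
Tekt1 (chr11:72361883-72362132, minus strand): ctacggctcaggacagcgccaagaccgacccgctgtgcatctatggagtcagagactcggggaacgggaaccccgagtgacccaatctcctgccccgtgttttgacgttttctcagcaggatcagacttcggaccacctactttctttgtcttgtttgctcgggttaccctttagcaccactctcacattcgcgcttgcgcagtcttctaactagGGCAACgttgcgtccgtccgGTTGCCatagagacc
Tekt2 (chr4:126325689-126325938, minus strand): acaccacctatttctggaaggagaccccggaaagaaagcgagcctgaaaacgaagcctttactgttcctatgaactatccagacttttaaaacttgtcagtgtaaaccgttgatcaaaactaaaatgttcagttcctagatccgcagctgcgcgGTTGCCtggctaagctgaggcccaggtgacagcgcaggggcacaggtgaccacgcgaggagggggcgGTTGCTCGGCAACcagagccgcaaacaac
Dnah5 (chr15:28203516-28203765, plus strand): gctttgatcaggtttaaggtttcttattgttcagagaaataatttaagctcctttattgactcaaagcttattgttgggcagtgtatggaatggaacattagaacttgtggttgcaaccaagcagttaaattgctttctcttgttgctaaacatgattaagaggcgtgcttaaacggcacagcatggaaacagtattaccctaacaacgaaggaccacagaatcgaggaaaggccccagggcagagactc
Dnah9 (chr11:66168552-66168801, minus strand): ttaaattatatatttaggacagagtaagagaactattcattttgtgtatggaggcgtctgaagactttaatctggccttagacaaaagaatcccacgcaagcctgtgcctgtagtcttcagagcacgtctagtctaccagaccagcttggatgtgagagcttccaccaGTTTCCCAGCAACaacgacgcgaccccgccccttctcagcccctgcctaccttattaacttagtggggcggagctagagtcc
The Tekt1 half-sites lie 35 and 15 bases before the start, those of Tekt2 at 96 bases and, within the paired letters, at 22, and the paired letters of Dnah9 at 82. The Dnah5 stretch holds none of the searched letters. Among the regulators, neither searched paired form was found in Rfx1, Rfx2 or Rfx3, and their half-site is shown with 12 bases on each side. It lies 116 bases before the start in Rfx2, begins at the second transcribed base in Rfx1 and at base 32 in Rfx3.
Rfx1 (chr8:84066825-84066854, plus strand): tgggtagcaacaGTTGCCccggtgagggaa
Rfx2 (chr17:56831107-56831136, minus strand): agcttggtaaccGTTGCCgggcgcaacgcc
Rfx3 (chr19:28011118-28011147, minus strand): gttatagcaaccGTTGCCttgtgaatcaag

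The libraries held 13755356 to 45465324 counts assigned to genes. Supporting cell markers (6 genes) summed to between 932 and 2814 CPM in GFP+ libraries and to between 83.9 and 196 CPM in GFP- libraries. CPM are counts scaled to a common library total after normalisation of all 16 libraries. None of the 6 was at 0 in any group. The order matches the labels of the sort, but the 6 include Lfng, whose regulatory sequence drives the GFP. With DMSO, hair cell markers were no lower in the GFP+ than in the GFP- fraction. Their mean sums were 364 against 308 CPM at P0 and 395 against 351 CPM at P5. The summed stria vascularis markers were higher in the GFP+ fraction, at 159 against 70.2 CPM (P0) and 580 against 218 CPM (P5). The 3 genes of this list did not share a direction. At each age 1 was higher and 1 lower in GFP+ cells past the limits stated below. Mean sums of mesenchyme, glia, neuron, erythroid, macrophage and endothelium markers with DMSO were lower in the GFP+ fraction at both ages. Neuron sums at P0 overlapped, at 11.4 and 32.6 CPM in GFP+ and 9.70 and 256 CPM in GFP- libraries. Of the 3 erythroid genes at P5, 1 was higher in GFP+ cells and 1 lower past the limits. At P5, 1 of 4 glia and 1 of 4 neuron genes had a positive log2 fold change. The part of other cells in the 8 genes was not tested. The 2 P0 DMSO GFP+ libraries stood apart from the 6 other GFP+ libraries. They detected 30639 and 31345 genes with a count against 25651 to 27156, and reads with several alignments took 7.63 to 8.56% of their records against 3.95 to 4.45%. The numbers in the names of the deposited libraries fall into 3 stretches, which hold the P0 DMSO GFP+ libraries, the 6 other GFP+ libraries and the 8 GFP- libraries, and no source says whether a stretch was a batch. Comparisons of P0 DMSO GFP+ libraries with any other group, and of GFP+ with GFP- at either age, crossed stretches, so that anything that differed between stretches and the groups cannot be told apart there. DAPT against DMSO in P0 GFP+ cells, the difference of the responses between ages, P5 against P0 in DMSO and GFP+ against GFP- at P0 share the P0 DMSO GFP+ libraries and are not independent of each other.

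In GFP+ cells of P0 cochleas, the genes did not share one direction after DAPT. Foxj1, Tekt2 and Rfx3 rose, while the dynein heavy chain genes Dnah5 and Dnah9 fell. Tekt1, Rfx1 and Rfx2 had higher values in both DAPT libraries than in both DMSO libraries but did not pass the test. Thus 5 of 8 genes passed the limits (a fold change above 2 with an adjusted p below 0.01 in edgeR's quasi-likelihood F test), 3 higher and 2 lower, where 8.37% of the 20711 genes tested did (4.2% higher and 4.17% lower). The replicates of DAPT and DMSO did not overlap for any of the 8 genes, nor did they for 68.4% of all genes tested, and 7 of the 8 had an unadjusted p under 0.05, against 40.3% of all genes. The median log2 fold change of the 8 genes was 0.74, and that of all genes tested -0.05. The 8 genes were chosen with earlier results of these data known, so these shares describe the set and do not test it.

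**Figure D1:**
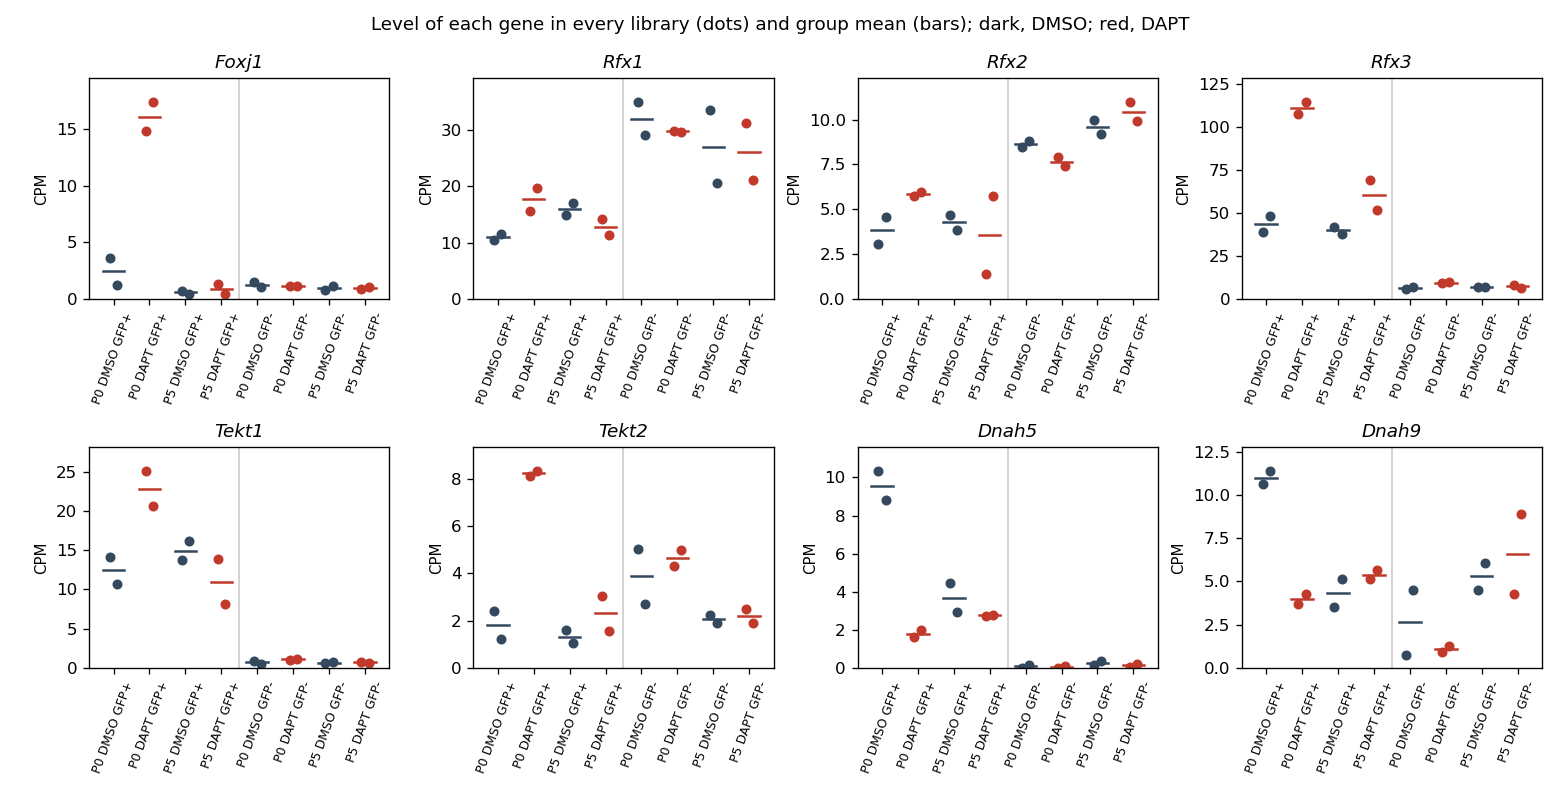
Level of each of the 8 genes in CPM (vertical axis from 0, own scale per gene) in the 16 libraries, by group; dots are libraries, bars are means of n = 2, dark for DMSO and red for DAPT, with GFP+ groups left of the grey line. Foxj1, Rfx3, Tekt1 and Tekt2 were highest in P0 DAPT GFP+ cells, Dnah5 and Dnah9 in P0 DMSO GFP+ cells, and Rfx1 and Rfx2 in GFP- groups.

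Among the regulators, Foxj1 (ENSMUSG00000034227, NCBIM37 chromosome 11, 116192018 to 116196713) changed most. It had 3.66 and 1.27 CPM in the P0 DMSO GFP+ libraries (80 and 25 counts) and 14.8 and 17.4 CPM in the P0 DAPT GFP+ libraries (278 and 337 counts). The DMSO replicates differed from each other by more than the DAPT replicates did in proportion, but both lay far below DAPT. The log2 fold change was 2.66 (SE 0.45, adjusted p = 0.0030 by edgeR), or 6.31-fold, and it ranged from 2.12 to 3.65 when each library was left out in turn, past the limits each time.

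Rfx3 (ENSMUSG00000040929, chromosome 19, 27836211 to 28085656) had the highest counts of the 8 genes in GFP+ cells. It went from 39.0 and 48.1 CPM in P0 DMSO GFP+ libraries to 108 and 115 CPM in P0 DAPT GFP+ libraries. Both DAPT libraries exceeded every other library of the series. The log2 fold change was 1.32 (SE 0.15, adjusted p = 0.00035 by edgeR), or 2.49-fold, and it stayed past the limits without each library in turn (1.21 to 1.49).

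Rfx1 (ENSMUSG00000031706, chromosome 8, 86590735 to 86620891), a broadly expressed family member, had 10.4 and 11.5 CPM in P0 DMSO GFP+ libraries and 15.6 and 19.7 CPM in P0 DAPT GFP+ libraries, with a log2 fold change of 0.65 (SE 0.24, adjusted p = 0.073 by edgeR). Rfx2 (ENSMUSG00000024206, chromosome 17, 56915320 to 56970431), best known from ciliated and spermatogenic cells, had 3.06 and 4.57 CPM and then 5.76 and 5.94 CPM, with a log2 fold change of 0.58 (SE 0.39, adjusted p = 0.29 by edgeR). For these 2 genes the DAPT values lay above the DMSO values without passing the test.

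Tekt2 (ENSMUSG00000028845, chromosome 4, 125999365 to 126002932) followed Foxj1 in size. It had 2.42 and 1.22 CPM in P0 DMSO GFP+ libraries (53 and 24 counts) and 8.11 and 8.32 CPM in P0 DAPT GFP+ libraries (152 and 161 counts), a log2 fold change of 2.12 (SE 0.44, adjusted p = 0.0085 by edgeR). The call was near its limit: with 1 library left out the log2 fold change was 1.74 to 2.74, and the adjusted p reached 0.016 without P0 DMSO replicate 2, 0.016 without P0 DAPT replicate 1 and 0.014 without P0 DAPT replicate 2. Tekt2 shares 396 exonic bases with the antisense long noncoding RNA gene Gm12945, and the kit does not mark strand, so reads of the shared bases cannot be assigned to either. Tekt1 (ENSMUSG00000020799, chromosome 11, 72158224 to 72175944) went from 14.1 and 10.7 CPM to 25.1 and 20.6 CPM. Its log2 fold change was 0.84 (SE 0.24, adjusted p = 0.029 by edgeR), so that it met neither limit.

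Dnah5 (ENSMUSG00000022262, chromosome 15, 28133507 to 28401800) went the other way. It had 10.3 and 8.79 CPM in P0 DMSO GFP+ libraries (226 and 173 counts) and 1.60 and 1.964 CPM in P0 DAPT GFP+ libraries (30 and 38 counts), a log2 fold change of -2.46 (SE 0.37, adjusted p = 0.0017 by edgeR). Without P0 DMSO replicate 1 the adjusted p was 0.0101. Dnah9 (ENSMUSG00000056752, chromosome 11, 65644784 to 65982053) had 10.6 and 11.4 CPM (232 and 224 counts) and then 3.68 and 4.29 CPM (69 and 83 counts), a log2 fold change of -1.50 (SE 0.31, adjusted p = 0.0088 by edgeR). Its call was lost without any 1 of the 4 libraries (adjusted p = 0.020 to 0.045) and with the replicate number as a block (adjusted p = 0.0102). Dnah9 shares 495 exonic bases with the antisense gene Gm12296, which has the same limit as for Tekt2.

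When all 8 groups entered one fit, which then used one estimate of the spread, 2 of the 8 genes passed the limits, Foxj1 and Rfx3. The adjusted p was 0.011 for Tekt2, 0.066 for Dnah5 and 0.12 for Dnah9 by edgeR.

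**Figure D2:**
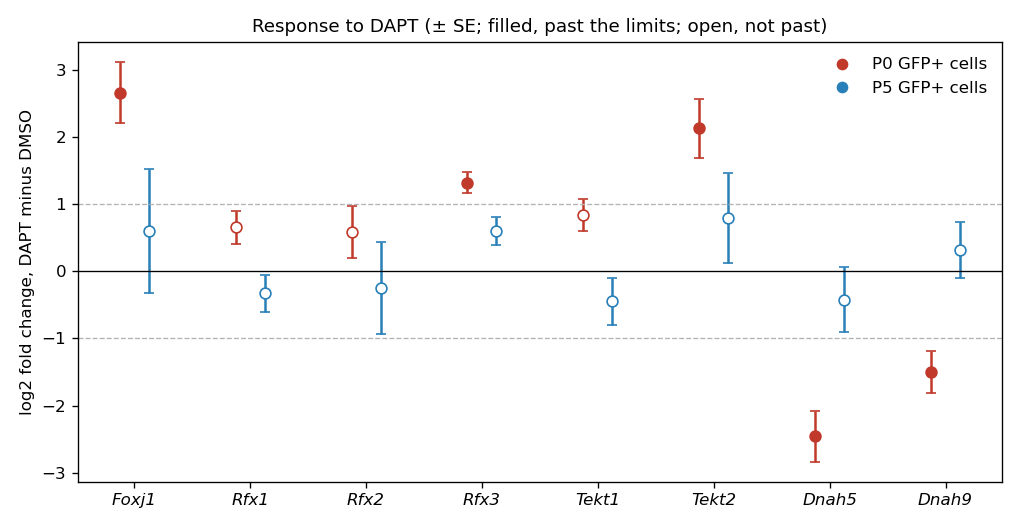
Log2 fold change of DAPT against DMSO (vertical axis) for the 8 genes in P0 GFP+ cells (red) and P5 GFP+ cells (blue), each from n = 2 against 2 libraries; bars are standard errors, filled points are past the limits and dashed lines mark the fold limit. At P0, Foxj1 at 2.66, Rfx3 at 1.32 and Tekt2 at 2.12 are filled above 0 and Dnah5 at -2.46 and Dnah9 at -1.50 below it, and no point is filled at P5.

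The level of both dynein genes in P0 DMSO GFP+ libraries stood apart not only from P0 DAPT but from every GFP+ group. Dnah5 had 2.92 to 4.46 CPM in P5 DMSO and 2.73 to 2.78 CPM in P5 DAPT GFP+ libraries. Dnah9 had 3.54 to 5.12 CPM in P5 DMSO and 5.14 to 5.66 CPM in P5 DAPT GFP+ libraries. In these same P0 DMSO libraries the summed level of 1074 olfactory receptor genes, a family of odorant receptors with no known role in supporting cells, was 548 and 676 CPM. It was 140 and 151 CPM in P0 DAPT GFP+ libraries, 176 to 260 CPM in P5 GFP+ libraries and 6.996 to 14.9 CPM in GFP- libraries. The part of whatever set these libraries apart in the fall of Dnah5 and Dnah9 was not tested. Dnah5 and Dnah9 are long genes, with 15630 and 15988 exonic bases. Of the 751 genes tested with at least 10 kb of exonic sequence, 68 were past the limits downward (9.05%) and 65 upward, with a median log2 fold change of 0.19. Of the 19474 shorter genes, 782 were past the limits downward (4.02%) and 791 upward, with a median of -0.06. Among long and shorter genes alike, calls were split about evenly between the directions, so the larger share of long genes held upward as well. The part of gene length in the values of Dnah5 and Dnah9 was not tested.

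**Figure D3:**
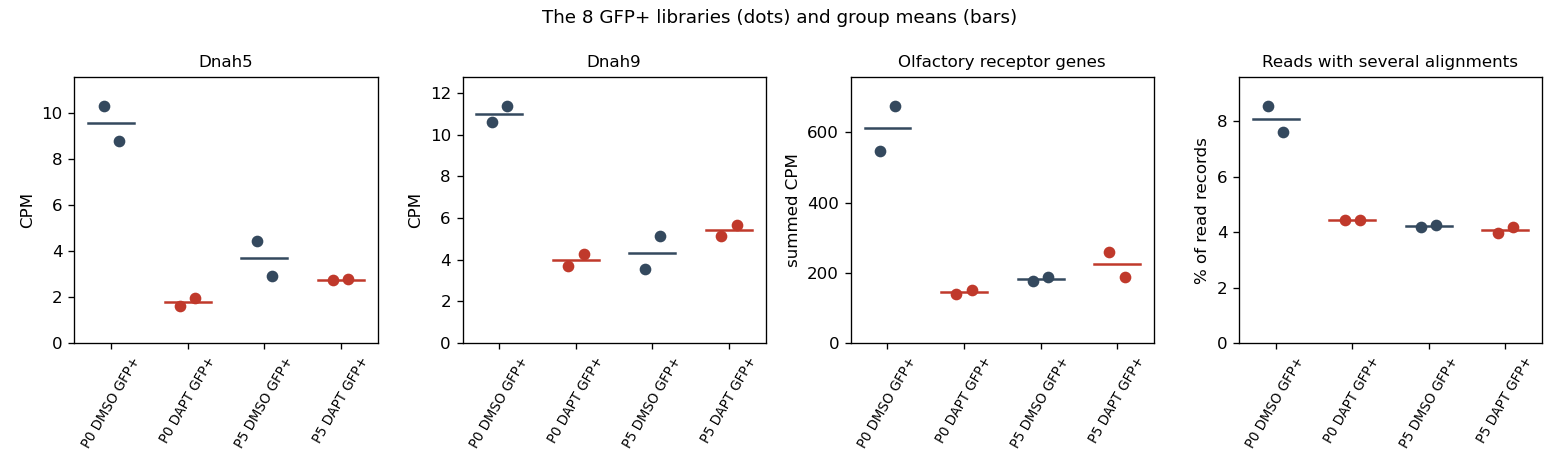
Dnah5 and Dnah9 (CPM), the summed level of 1074 olfactory receptor genes (CPM) and the share of read records with several alignments (%) in the 8 GFP+ libraries; dots are libraries, bars are means of n = 2, and every axis starts at 0. In all 4 panels both P0 DMSO libraries lie above the 6 others.

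Markers of other cells changed in the same comparison. The summed level of 6 hair cell markers was 304 and 424 CPM in P0 DMSO and 2268 to 2532 CPM in P0 DAPT GFP+ libraries, and none of the 6 was at 0 in any group. In the fixed hair cell list, 12 of 14 genes rose past the limits (median log2 fold change 4.01), among them Pou4f3 (5.60), Barhl1 (5.57) and Atoh1 (5.19), transcription factors of hair cells. All 9 genes of the Notch list fell (median -2.39), led by the Notch targets Hes5 (-8.18), Heyl (-4.46) and Nrarp (-4.37). These lists were chosen with the response known, and they describe the setting in which the ciliary genes were read. The 4 neuronal markers summed to 11.4 and 32.6 CPM in P0 DMSO and to 114 and 127 CPM in P0 DAPT GFP+ libraries, while supporting cell markers went from 2611 to 2814 CPM down to 1602 to 1778 CPM. Their part in the changes of the ciliary genes was not tested, and in RNA of sorted populations a different number of cells of a type and a different amount of RNA per cell cannot be told apart.

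The other genes of the cilium were read from fixed lists in the same comparison. Each is to be set beside all genes: 8.37% were past the limits (4.2% higher, 4.17% lower) and their median was -0.05. Of the axonemal dynein heavy chain genes other than Dnah5 and Dnah9, 11 were tested. Their median log2 fold change was -1.18, 10 of the 11 had a negative value, and 1 passed the limits: Dnah7b, an inner arm heavy chain, had 15.0 ± 3.26 CPM (SD, n = 2) with DMSO and 5.73 ± 0.13 CPM with DAPT, a log2 fold change of -1.43 with an adjusted p of 0.0074 by edgeR. The share past the limits, 9.09%, rests on this 1 gene, where 4.17% of all genes were lower. The comparison uses the P0 DMSO GFP+ libraries, which stood apart. In 2 comparisons of GFP+ cells without them, the heavy chain median was 0.29 (P5 against P0 in DAPT, 7 of 10 positive) and 0.01 (DAPT at P5, 5 of 10 positive). For P5 against P0 in DMSO, which uses them, it was -0.76 (2 of 11 positive). The part of whatever set these libraries apart in the heavy chain values was not tested. The split of the dynein list into heavy chains and other genes was made after the values were seen.

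The other axonemal dynein genes (intermediate and light chains, docking and assembly factors) had a median of 0.62, with 18 of 20 values positive. Of the 20, 2 rose past the limits and none fell (10%, where 4.2% of all genes were higher and 8.37% passed in either direction). Dnai2, an intermediate chain of the outer arm, had 2.28 ± 0.14 CPM and then 22.2 ± 3.13 CPM, a log2 fold change of 3.24 (SE 0.28) with an adjusted p of 5.8e-05. Dnai4 had 22.8 ± 8.03 CPM and then 51.2 ± 3.503 CPM, a log2 fold change of 1.13 (SE 0.23) with an adjusted p of 0.0083, both by edgeR. Dnai2 rose and Dnah5 and Dnah9 fell, and all 3 encode subunits of the outer arm.

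Genes of the radial spokes, central pair and nexin link, which set the beat of motile axonemes, had a median log2 fold change of 0.94. Of 24 tested, 3 rose past the limits and none fell: Cfap69 (1.72, adjusted p = 0.00061), Stk36 (1.45, adjusted p = 0.0014) and Ccdc40 (1.31, adjusted p = 0.0018, all by edgeR). For tektins and other proteins inside the doublets, other than Tekt1 and Tekt2, 0 of 17 genes passed (median 0.14), DESeq2's Wald test called 1, and an adjusted p limit of 0.05 gave 4. Other regulators of ciliated cells gave 0 of 13 (median 0.12), 0 by DESeq2 and 2 at an adjusted p limit of 0.05.

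Intraflagellar transport, which builds cilia of all kinds, had 3 of 31 genes higher and none lower (median 0.50). Dync2h1, the motor of return transport, rose by a log2 fold change of 1.07, Ift88 by 1.03 and Wdr35 by 1.00. Of the genes of the BBSome and the transition zone, a coat and a gate at the ciliary base, 3 of 33 were higher and none lower (median 0.47). Bbs1, a BBSome subunit, had 19.2 ± 2.75 CPM and then 86.0 ± 8.70 CPM, a log2 fold change of 2.12 (SE 0.18) with an adjusted p of 4.1e-05 by edgeR, and Tctn3 (1.28) and Tmem67 (1.10), both of the transition zone, also rose. The share past the limits was 9.68% for transport and 9.09% for the ciliary base, all of it upward. Among all genes 4.2% were higher and 8.37% passed in either direction, and each list share rests on 3 genes.

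**Figure D4:**
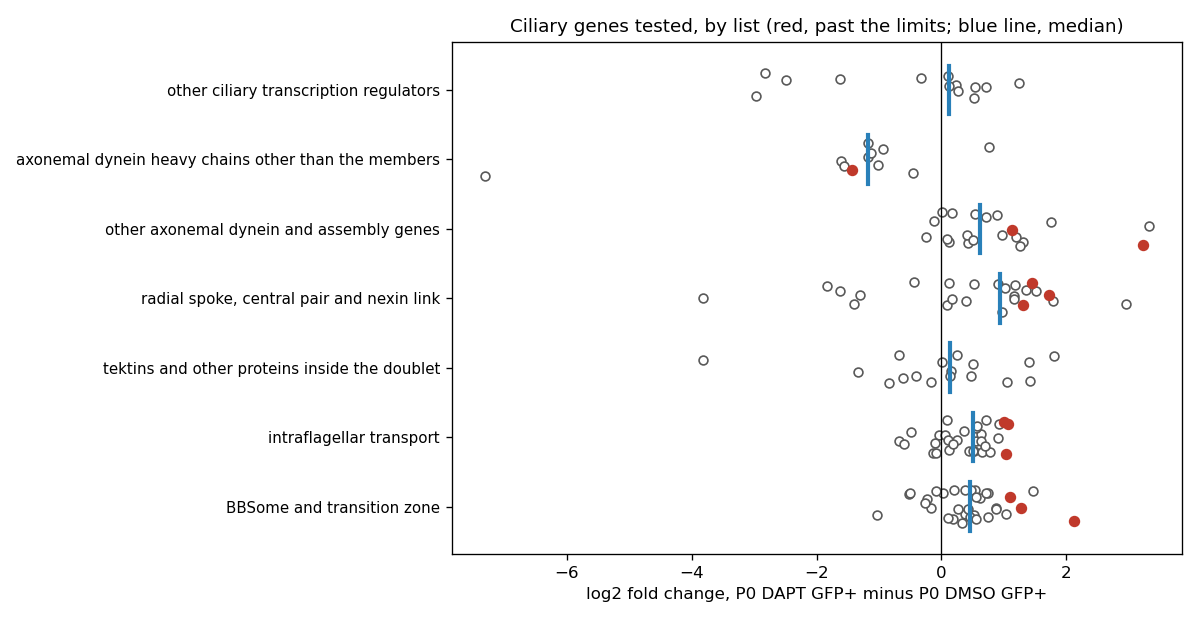
Log2 fold change of DAPT against DMSO in P0 GFP+ cells (horizontal axis) for each tested gene of 7 ciliary lists, without the 8 genes followed here; red points are past the limits, blue lines are list medians, and vertical scatter within a list only separates the points. The heavy chains have their median at -1.18, left of 0, and the 6 other lists have theirs between 0.12 and 0.94.

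At P5 no gene of the 8 passed the limits with DAPT in GFP+ cells, nor did any of the 18754 genes tested (0%). With its own processing, the study reported a few changed genes in these cells. All 9 genes of the Notch list had negative values here (median log2 fold change -1.33), and 0 passed the limits. A count of 0 with 2 libraries per group thus does not show an absence of change. At an unadjusted p under 0.05 there was 1 of 8, Rfx3, against 5.08% of all genes, and DESeq2 called 0 of the 8. Rfx3 had 42.1 and 37.8 CPM in P5 DMSO and 69.5 and 51.9 CPM in P5 DAPT GFP+ libraries, a log2 fold change of 0.60 (SE 0.21, adjusted p = 0.93 by edgeR). Both DAPT values lay above both DMSO values. The replicates did not overlap for 4 of the 8 genes, against 34.6% of all genes.

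Foxj1 was nearly undetected at P5. It had 12 and 8 counts in P5 DMSO and 17 and 9 in P5 DAPT GFP+ libraries (0.44 to 1.32 CPM), which overlapped, with a log2 fold change of 0.59 (SE 0.92) that could not be told from 0 at this depth. Tekt2 had 1.59 and 1.05 CPM in DMSO and 3.04 and 1.57 CPM in DAPT (log2 fold change 0.80, SE 0.67), again with overlap. Tekt1 had 13.7 and 16.1 CPM in DMSO and 13.9 and 8.12 CPM in DAPT (-0.44, SE 0.35).

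Rfx1 had 14.8 and 17.1 CPM in P5 DMSO and 14.2 and 11.3 CPM in P5 DAPT GFP+ libraries (-0.33, SE 0.27). Rfx2 had 4.71 and 3.86 CPM in DMSO, but 1.402 and 5.76 CPM in DAPT (18 and 110 counts), so that its value (-0.25, SE 0.68) rested on replicates that lay on either side of both DMSO libraries. Dnah5 (-0.42, SE 0.49) and Dnah9 (0.32, SE 0.41) had no common direction.

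The difference between the responses of the ages was tested as an interaction in the 8 GFP+ libraries, and none of the 8 genes passed the limits (1.1% of 22199 genes did, 0.392% higher and 0.712% lower). At an unadjusted p under 0.05 there were 6 of 8, against 21.4% of all genes, and DESeq2 called 0 of the 8. The response at P5 minus that at P0 was -2.10 for Foxj1 (SE 0.91, adjusted p = 0.22), -1.29 for Tekt1 (SE 0.43, adjusted p = 0.13) and -0.72 for Rfx3 (SE 0.26, adjusted p = 0.16) on the log2 scale. It was 2.03 for Dnah5 (SE 0.56, adjusted p = 0.080) and 1.81 for Dnah9 (SE 0.48, adjusted p = 0.073). It was -0.98 for Rfx1 (SE 0.36), -1.33 for Tekt2 (SE 0.75) and -0.82 for Rfx2 (SE 0.81). All are by edgeR, and a difference of the response to DAPT between the ages was thus not shown for any of the 8 genes.

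The ages were also compared under each treatment. In DAPT GFP+ cells, a comparison that does not use the P0 DMSO GFP+ libraries, Foxj1 was lower at P5 than at P0 by 4.20 on the log2 scale (log2 fold change -4.20, SE 0.51, adjusted p = 0.0037 by edgeR), the only one of the 8 past the limits (5.78% of 18776 genes were, 2.74% lower and 3.04% higher). The replicates of the ages did not overlap for 7 of the 8, against 62.1% of all genes, and 4 of 8 had an unadjusted p under 0.05, against 32.5%. Foxj1 had 14.8 and 17.4 CPM at P0 and 1.32 and 0.47 CPM at P5, far apart. Tekt2 (-1.83, SE 0.44, adjusted p = 0.035), Tekt1 (-1.04, SE 0.31, adjusted p = 0.069) and Rfx3 (-0.86, SE 0.18, adjusted p = 0.022) were lower at P5 in both libraries without passing, and Dnah5 (0.64, SE 0.49) and Dnah9 (0.45, SE 0.36) had higher values at P5.

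This count depended on the processing: it was 3 without a filter on low counts (Foxj1, Tekt1 and Tekt2), 2 by DESeq2 (Foxj1 and Tekt2), 0 without either P0 DAPT library (adjusted p of Foxj1 0.040 and 0.048) and 4 without P5 DAPT replicate 1 (Foxj1, Rfx3, Tekt1 and Tekt2). In DMSO GFP+ cells none of the 8 passed (3.32% of 20844 genes did, 2.01% higher and 1.3% lower). An unadjusted p under 0.05 was found for 3 of 8, against 29.8% of all genes, and DESeq2 called 0 of the 8. Foxj1 had a log2 fold change of -2.11 (SE 0.80, adjusted p = 0.12), Dnah5 of -1.42 (SE 0.40, adjusted p = 0.056) and Dnah9 of -1.38 (SE 0.37, adjusted p = 0.049, all by edgeR), each lower at P5 in both libraries. The replicates did not overlap for 4 of the 8, against 61% of all genes.

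Without DAPT, the genes differed in the fraction that held them. Tekt1, Rfx3 and Dnah5 were higher in GFP+ than in GFP- cells at both ages, and Rfx1 was lower in GFP+ cells at P0. At P0, 4 of 8 genes passed the limits, against 40.9% of the 21779 genes tested, and at P5 3 of 8, against 33.9% of 19008, so these shares were near those of all genes. An unadjusted p under 0.05 was found for 5 of 8 at P0 (64.8% of all genes) and 4 of 8 at P5 (63.3%), and the fractions did not overlap for 7 of 8 at P0 (82.7%) and 7 of 8 at P5 (82.9%). The scaling moved the median of all genes by 0.13 (P0) and 0.11 (P5) on the log2 scale in these comparisons, with no change in the calls or their directions.

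Other measures differed between the fractions as well. Reads outside genes took 50.05 to 62.0% in GFP+ libraries and 6.64 to 13.7% in GFP- libraries, and mitochondrial genes took 23.0 to 34.2% and 3.01 to 5.37% of gene counts. The 1074 olfactory receptor genes summed to 612 CPM in P0 DMSO GFP+ and 13.3 CPM in P0 DMSO GFP- cells. At P5 the sums were 183 and 10.3 CPM. The filter on low counts kept 307 of them at P0 and 24 at P5. Most counts came from GFP+ libraries, so the filter largely fixed the direction of the genes kept. Past the limits and higher in GFP+ cells were 300 of the 307 (median log2 fold change 7.73) and 22 of the 24 (median 7.24). Of all genes tested, 25.5% and 18.4% were. The part of these differences in the values of Tekt1, Rfx3, Dnah5 and Rfx1 between fractions was not tested.

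Tekt1 had the clearest pattern, with 10.7 to 25.1 CPM in P0 GFP+ libraries, 8.12 to 16.1 CPM in P5 GFP+ libraries and 0.55 to 1.10 CPM in the 8 GFP- libraries. In DMSO the log2 fold change of GFP+ against GFP- was 4.17 at P0 (SE 0.52, adjusted p = 0.0022) and 4.62 at P5 (SE 0.39, adjusted p = 0.00084, both by edgeR). Rfx3 had 5.82 to 10.1 CPM in GFP- libraries against 37.8 to 115 CPM in GFP+ libraries, with log2 fold changes of 2.92 at P0 (SE 0.25, adjusted p = 0.00083) and 2.63 at P5 (SE 0.22, adjusted p = 0.00084, both by edgeR). For both genes the fractions did not overlap in any group.

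Dnah5 had 0 and 6 counts in P0 DMSO GFP- libraries, 0 and 4 in P0 DAPT, 7 and 15 in P5 DMSO and 3 and 10 in P5 DAPT GFP- libraries. The log2 fold change of GFP+ against GFP- was 7.01 at P0 (SE 1.15, adjusted p = 0.0034) and 3.901 at P5 (SE 0.67, adjusted p = 0.0048, both by edgeR), and these sizes rest on few counts in the lower group. The P5 call was lost with the replicate block (adjusted p = 0.0108) and without either P5 DMSO GFP- library (adjusted p = 0.031 and 0.018). At P0 no gene of the 8 passed without P0 DMSO GFP+ replicate 1 or replicate 2, with adjusted p of 0.026 to 0.045 for the 4 genes called.

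Rfx1 had 29.1 and 34.99 CPM in P0 DMSO GFP- libraries, above the 10.4 and 11.5 CPM of GFP+ libraries (log2 fold change -1.44, SE 0.25, adjusted p = 0.0039 by edgeR). At P5 its value was -0.62 (SE 0.31, adjusted p = 0.13). Rfx2 had 7.39 to 10.99 CPM in the 8 GFP- libraries, above the 1.402 to 5.94 CPM of every GFP+ library, with values of -1.07 at P0 (SE 0.44, adjusted p = 0.078) and -1.03 at P5 (SE 0.36, adjusted p = 0.048). The order of the 2 fractions was thus opposite for Rfx3 on one side and Rfx1 and Rfx2 on the other.

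Foxj1 (0.75 to 1.45 CPM in GFP- libraries) and Tekt2 (1.88 to 5.01 CPM) did not pass between fractions at either age. Dnah9 had 0.76 and 4.49 CPM in the P0 DMSO GFP- libraries (35 and 164 counts). Replicate 2 lay near the 4.53 and 6.06 CPM of P5 DMSO and far from the 0.89 and 1.27 CPM of P0 DAPT GFP- libraries. Its GFP+ to GFP- log2 fold change at P0 was 2.19 (SE 0.82, adjusted p = 0.058), and without that library 3.91 (adjusted p = 6.5e-05, both by edgeR).

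In GFP- cells DAPT moved none of the genes past the limits at either age. At P0, 0 of 7 tested passed (0% of 17357 genes did), 0 had an unadjusted p under 0.05 (3.54% of all genes) and DESeq2 called 0 of the 7. At P5, 0 of 7 passed (0% of 17286), 0 had an unadjusted p under 0.05 (1.98%) and DESeq2 called 0 of the 7. Dnah5 was removed by the filter on low counts in both. Rfx3 came nearest at P0, with 6.63 and 5.82 CPM in DMSO and 8.97 and 10.1 CPM in DAPT (log2 fold change 0.59, SE 0.23, unadjusted p = 0.063 and adjusted p over 0.99 by edgeR).

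Ordered by group mean, Foxj1 had its highest level in P0 DAPT GFP+ cells, apart from the next group (P0 DMSO GFP+), and neighbours in the order of the 7 lower groups all overlapped. Rfx3, Tekt1 and Tekt2 also had their highest level in P0 DAPT GFP+ cells, apart from the next group. For Tekt2 that next group was P0 DAPT GFP- at 4.66 ± 0.47 CPM (SD, n = 2), while P0 DMSO GFP+ had rank 7 of 8 at 1.82 ± 0.85 CPM. Dnah5 was highest in P0 DMSO GFP+, followed by P5 DMSO, P5 DAPT and P0 DAPT GFP+ cells, each apart from the next. Groups of 2 libraries are often apart: P0 DAPT and P0 DMSO GFP+ libraries did not overlap for 68.4% of all genes tested. The share of all genes with such orders was not counted, so the orders are a description of the 8 genes.

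To compare genes with each other, levels were divided by exonic length. In P0 DMSO GFP+ cells Tekt1 had the highest level at 7.66 ± 1.49 CPM per kb (SD, n = 2), followed by Rfx3 at 3.94 ± 0.58 and Rfx1 at 2.63 ± 0.20 CPM per kb. Rfx2, Tekt2, Foxj1, Dnah9 and Dnah5 had mean levels of 0.61 to 1.14 CPM per kb. In P0 DAPT GFP+ cells Tekt1 was at 14.1 ± 1.97, Rfx3 at 10.1 ± 0.43 and Foxj1 at 6.15 ± 0.70 CPM per kb, so that Foxj1 had moved from rank 6 to rank 3 of the 8 genes. Dnah9 at 0.249 and Dnah5 at 0.114 CPM per kb were the lowest there.

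The genes whose levels ran most alike were taken by the Pearson r of log2(CPM + 1) over all 16 libraries. These points share fractions, libraries and depth, and the r is a description. For Foxj1 they were Gm13373 (0.971) and Nfkbib (0.968), for Rfx1 Timm44 (0.980) and Akap8l (0.972), and for Rfx2 Ap4s1 (0.956) and Ccdc126 (0.946). For Rfx3 they were Cnksr2 (0.995) and Rttn (0.993), for Tekt1 Gm13965 (0.992) and Zfp462 (0.992), and for Tekt2 Lrig3 (0.928) and Tnrc6c (0.923). For Dnah5 they were Clip1 (0.987) and Gm4297 (0.985), and for Dnah9 Dnajb11 (0.898) and 1700025G04Rik (0.892). None of these 16 genes is a member of the ciliary lists.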

How the data were processed

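The authors aligned paired-end reads of sorted cochlear cells to the mm9 mouse genome (NCBIM37) with TopHat (version 1.4.0 in the submitters' processing notes, which also list HTSeq and DESeq) and deposited raw counts per Ensembl gene, with 1 file per library. Settings of the counting, strand included, are not given in the sources used here. Complementary DNA from few cells had an extra amplification, which can affect spread and composition. The 5 closing lines of each file entered no test.

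Each comparison used the groups compared. Genes were filtered with filterByExpr (minimum count 10, minimum total 15), normalised with TMM and tested with the quasi-likelihood F test of edgeR 4.0.16 in R 4.3.3, with Benjamini-Hochberg adjustment over all genes tested. The limits were a fold change above 2 with an adjusted p below 0.01. SE is the size of the log2 fold change divided by the square root of F. CPM came from TMM over 24731 genes and all 16 libraries. Lengths, types and coordinates came from GENCODE M1 on NCBIM37. The script was tested on simulated data. Alternatives were DESeq2 size factors, no filter, the Wald test of DESeq2 1.42.0, all groups in one fit, a replicate block, an adjusted p limit of 0.05 and leaving out each library.

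The 8 genes and the lists were chosen with earlier results of these data known. The list of olfactory receptor genes, the split of the dynein list into heavy chains and other genes, and the split by exonic length were added after seeing the data. From each list, up to 3 genes per direction with the largest change past the limits at P0 and at least 5 CPM in the higher group were named, and for each of the 8 genes the 2 genes of highest r among genes of at least 5 CPM in their highest group. Dnaaf2 and Rsph10b of the lists were not matched. The 2 libraries of each group were distinct (chi-square statistic divided by genes 16.6 to 227, where sampling noise gives about 1).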

Additional observations from a re-analysis of the deposited data

How the results depend on the processing

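Comparisons with a reported count of 0 genes enter the next share, and an alternative with 0 there was taken as the same. In DAPT against DMSO of P5 GFP+ cells and of GFP- cells at both ages, 0% of all genes passed. The share is thus no measure of how stable the calls were. The count of the 8 genes past the limits was within 1.5 times the reported count in 80 of 94 alternatives. For DAPT against DMSO in P0 GFP+ cells it was 5, with all 8 groups in one fit 2, and with 1 library left out 3 each time. For GFP+ against GFP- in P0 DMSO cultures leaving out 1 library gave 0 to 5 against 4. For P5 against P0 in DAPT GFP+ cells the count of 1 became 3 without a filter on low counts, 2 with DESeq2's Wald test, 2 with an adjusted p limit of 0.05 and 0 to 4 with 1 library left out. For P5 against P0 in DMSO GFP+ cells an adjusted p limit of 0.05 gave 1 (Dnah9) against 0. The cause was not tested. With 1 library of a group left, its spread was taken from the other group.

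The sign of a log2 fold change turned only on leaving out a library, and only where no call was made. The ranges were, for DAPT in P5 GFP+ cells, -0.33 to 1.17 (Foxj1) and -1.60 to 0.41 (Rfx2). For DAPT in P0 GFP- cells they were -0.41 to 0.033 (Foxj1), -0.12 to 0.73 (Tekt2) and -2.10 to 0.49 (Dnah9). For DAPT in P5 GFP- cells they were -0.30 to 0.32 (Foxj1), -0.37 to 0.37 (Rfx1), -0.12 to 0.16 (Rfx3), -0.16 to 0.29 (Tekt1), -0.15 to 0.27 (Tekt2) and -0.29 to 0.74 (Dnah9). For GFP+ against GFP- at P5 the range was -0.45 to 0.052 (Dnah9), and for P5 against P0 in DMSO GFP+ cells -0.13 to 0.42 (Rfx2) and -0.93 to 0.075 (Tekt2).

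The replicate numbers were not taken to pair the samples, since no source says what they mark. Same-numbered deviations correlated from -0.25 to 0.73 between groups compared. The highest values were those of DAPT against DMSO in GFP- cells (0.43 at P0 and 0.73 at P5). The test without a block leaves any shared replicate effect there in the spread. With the replicate number as a block the count was 4 in P0 GFP+ cells with DAPT (Dnah9 lost), 4 and 2 between fractions at P0 and P5 (Dnah5 lost at P5), 1 for P5 against P0 in DAPT GFP+ cells and 0 in the other 5 comparisons.

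Counts of list genes past the limits at P0 also moved: for axonemal dyneins and their assembly from 3 to between 1 and 10, and for radial spokes, central pair and nexin link from 3 to between 1 and 10. For the BBSome and transition zone the 3 became 5 or 6, for tektins and other doublet proteins the 0 became 1 to 4, and for other regulators the 0 became 2. Depth limits Foxj1 in P5 GFP+ cells and Dnah5 in GFP- cells, where libraries held 17 counts or fewer.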
